A study of Mus musculus with 2 samples.

Results

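A set of 10 nuclear genes of the mitochondrial energy system was described in single LβT2 cells treated with GnRH or vehicle. The 10 genes were a named list of respiratory chain and mitochondrial ribosome genes, found by symbol among the 1068 genes analysed, and all 10 were present and detected. They were 3 complex I subunits (Ndufs1, Ndufb3 and Ndufa10), the complex IV subunit Cox5b, the assembly factors Bcs1l and Tmem177, and 4 mitochondrial ribosome proteins (Mrpl15, Mrpl30, Mrpl44 and Mrps9). LβT2 is an immortalised mouse gonadotrope line, made by driving a viral T antigen from luteinising hormone beta regulatory sequence, so the cells cycle and do not form a tissue. One library came from cells given 2 nM GnRH for 40 min and 1 from cells given vehicle for 40 min. Transcripts were captured in droplets at their 3′ ends and counted as unique molecular identifiers (UMIs), 1 for each captured molecule. With 1 library per treatment, cells were not replicates, no test was run, and every difference below lacks a replicate check.

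The respiratory chain moves electrons through membrane complexes to oxygen and pumps protons, and the resulting gradient drives ATP synthesis. Its subunits are encoded partly in the nucleus and partly in mitochondrial DNA, and the mitochondrial ribosome translates the latter inside the organelle. Nuclear subunits, assembly factors and ribosome proteins are made in the cytosol and imported, so that complexes with subunits of both genomes, such as complexes I and IV, need transcripts of both.

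The vehicle library held 1992 cells and 1126320 UMIs of the analysed genes, with a median of 543.5 per cell. The GnRH library held 1889 cells and 1118763 UMIs, with a median of 561. The genes analysed were the first 3.81% of a list of 27998 genes, and 1062 of the 1068 were placed on chromosome 1. The list held 182 genes with respiratory chain or mitochondrial ribosome family names, of which 9 were analysed, 8 of them described here and the other Sdhaf4. None of the 13 listed genes of mitochondrial DNA was analysed here. Of 9 gonadotrope markers, 3 were analysed and all were detected, with 2024 and 2281 UMIs of Inha, 4001 and 3274 of Inhbb and 78958 and 75893 of Scg2 in vehicle and GnRH cells respectively. The defining markers Lhb, Fshb, Cga and Gnrhr were not analysed here, so the label gonadotrope could be checked only in part. Among 10 markers of other cell types, 3 were analysed, of which Col3a1 and Cd28 had 0 UMIs in either library, while Fn1 had 640 and 712. Cells carried numbers and not barcodes, so barcodes shared between the libraries could not be counted.

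All 10 genes lie on mouse chromosome 1. Of the 10, 5 start within 1000 bases of the start of an analysed gene with at least 100 UMIs on the opposite strand. The same held for 84 of all 409 analysed genes with at least 100 UMIs (20.5%). Partners outside these 409 genes were not searched. Promoter windows of RefSeq, from 250 bases before to 50 bases after the start in the GRCm38.p6 assembly, were held for 8 of the 10 genes, and those of 4 are shown. Bcs1l and Tmem177 are shown because their GnRH to vehicle ratios were the lowest of the 10. Mrpl44 had the next lowest ratio and Mrps9 had almost equal levels in both libraries. The windows lie at chr1:74588039-74588338 on the plus strand (Bcs1l), chr1:119913134-119913433 on the minus strand (Tmem177), chr1:79775768-79776067 on the plus strand (Mrpl44) and chr1:42850983-42851282 on the plus strand (Mrps9). Sequences run 5′ to 3′ on the strand of the gene, and capitals mark letters of a searched motif.
Bcs1l: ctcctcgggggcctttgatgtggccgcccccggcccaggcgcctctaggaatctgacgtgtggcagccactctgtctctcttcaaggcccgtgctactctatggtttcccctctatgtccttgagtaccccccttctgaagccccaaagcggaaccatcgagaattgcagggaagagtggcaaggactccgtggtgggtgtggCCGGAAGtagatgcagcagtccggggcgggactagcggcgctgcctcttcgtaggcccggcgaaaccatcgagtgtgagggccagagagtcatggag
Tmem177: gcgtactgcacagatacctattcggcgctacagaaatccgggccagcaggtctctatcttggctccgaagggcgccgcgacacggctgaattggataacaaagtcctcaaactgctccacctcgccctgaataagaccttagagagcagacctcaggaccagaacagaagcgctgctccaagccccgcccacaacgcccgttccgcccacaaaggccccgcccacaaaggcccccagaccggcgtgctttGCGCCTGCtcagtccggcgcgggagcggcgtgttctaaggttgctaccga
Mrpl44: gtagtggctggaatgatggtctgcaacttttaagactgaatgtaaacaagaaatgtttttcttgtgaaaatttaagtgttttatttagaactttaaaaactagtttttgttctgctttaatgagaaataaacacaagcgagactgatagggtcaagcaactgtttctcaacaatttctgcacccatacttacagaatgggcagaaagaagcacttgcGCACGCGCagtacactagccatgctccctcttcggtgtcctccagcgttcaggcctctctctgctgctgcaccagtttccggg
Mrps9: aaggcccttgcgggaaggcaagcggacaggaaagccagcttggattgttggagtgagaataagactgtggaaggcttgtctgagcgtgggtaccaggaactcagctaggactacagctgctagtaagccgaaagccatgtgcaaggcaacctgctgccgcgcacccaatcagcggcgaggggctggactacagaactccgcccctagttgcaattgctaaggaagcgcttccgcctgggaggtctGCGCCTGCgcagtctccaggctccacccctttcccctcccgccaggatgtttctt

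Capitals in the Bcs1l window mark CCGGAAG, the core letters bound by ETS factors such as GABP, which began 47 bases before the start. Bcs1l was the only 1 of the 8 windows with these letters on either strand, against 8.86% of 32851 windows of all genes. The letters GCGCATGC of NRF1, a regulator of nuclear genes for mitochondrial proteins, were in 0 of the 8 windows and in 2.71% of all windows. Those of YY1, AAGATGGC, were in 0 of the 8 and in 2.75%. After the windows had been seen, the NRF1 letters were searched again with any base in the middle. GCGCNTGC was then found in 4 of the 8 windows, those of Tmem177, Mrpl30, Mrpl44 and Mrps9, against 9.61% of all windows. In Mrpl44 it stood on the reverse strand, and it reads GCACGCGC in the line above. The 8 windows had a median GC content of 60.2%, and all windows 52.7%. Letters in a window are a description of sequence, and binding was not measured.

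Abundance differed widely between the genes. Levels are given as UMIs per 1000000 UMIs of the analysed genes (CPM), which are not CPM of the whole transcriptome, with 95% exact Poisson intervals for counting error only. Because each molecule gave 1 UMI at its 3′ end, levels were not divided by gene length. The order from highest to lowest was Cox5b, Ndufb3, Mrpl30, Ndufa10, Mrpl15, Ndufs1, Mrps9, Mrpl44, Bcs1l and Tmem177, and it was the same in both libraries. The closest neighbours were Mrps9 and Mrpl44 in vehicle cells, at 1159 (1097 to 1223) and 1064 (1004 to 1126) CPM, whose intervals overlapped, and no other neighbours in the order had overlapping intervals. Together the 10 genes took 67660 UMIs in vehicle cells, 6.01% of those analysed, and 62687 in GnRH cells, 5.60%. The totals behind these shares included Btg2, with 1049 UMIs in vehicle and 33510 in GnRH cells.

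**Figure D1:**
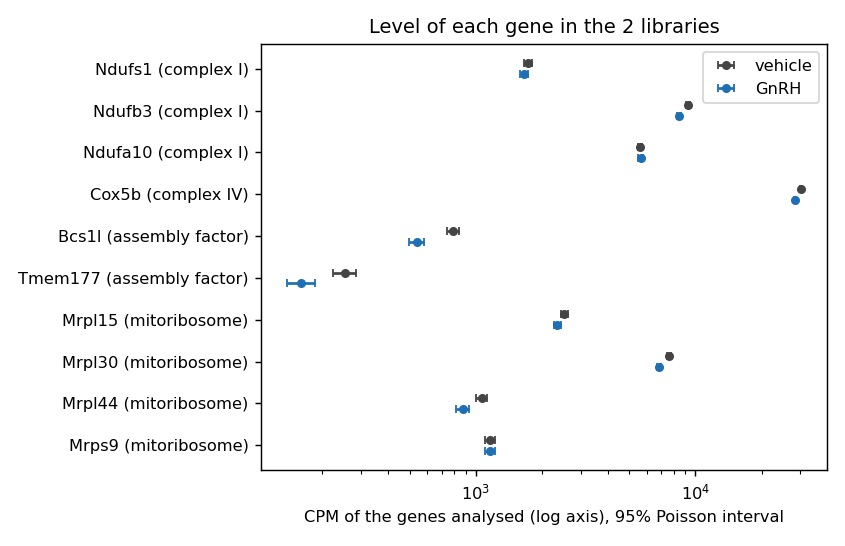
Level of each gene in vehicle and GnRH cells, as CPM of the analysed genes on a log axis, where points are library sums and bars are 95% exact Poisson intervals. Points span from Tmem177, at 253 and 161 CPM, to Cox5b, at 30128 and 28379. The intervals of vehicle and GnRH cells overlap for Ndufs1, Ndufa10, Mrpl15 and Mrps9. Intervals narrow with abundance, and overlap was not counted over all genes.

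Complex I takes electrons from NADH. Gene positions below are those of GENCODE M21 on GRCm38. Ndufs1, its large iron-sulphur subunit (chr1:63143596-63176833, minus strand), had 1944 UMIs in vehicle and 1854 in GnRH cells, or 1726 (1650 to 1804) and 1657 (1583 to 1734) CPM, a log2 ratio of GnRH over vehicle of −0.06 (95% conditional binomial interval −0.15 to 0.03). Ndufb3, an accessory subunit of the membrane arm (chr1:58586384-58595964, plus strand), had 10451 and 9435 UMIs, or 9279 and 8433 CPM, a log2 ratio of −0.14 (−0.18 to −0.10). Ndufa10, another accessory subunit (chr1:92439010-92473860, minus strand), had 6294 and 6306 UMIs, or 5588 and 5637 CPM, a log2 ratio of 0.01 (−0.04 to 0.06). Summed over these 3 subunits the log2 ratio was −0.08 (−0.11 to −0.05). For comparison, the median over all 409 genes with at least 100 UMIs was −0.09, with quartiles of −0.19 and 0.00. Ndufs1 overlaps Eef1b2 on the opposite strand only at the starts of both genes, 8 bases apart, whereas UMIs came from 3′ ends. Ndufs1 also overlaps a long noncoding RNA gene and a microRNA gene on that strand. Ndufa10 holds a microRNA gene on its own strand. Reads of these noncoding genes could be shared where counting allowed it.

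Cox5b, a nuclear subunit of cytochrome c oxidase (complex IV) (chr1:36691449-36693681, plus strand), was the 7th most abundant of the 1068 genes. It had 33934 and 31749 UMIs, or 30128 (29808 to 30450) and 28379 (28067 to 28693) CPM in vehicle and GnRH cells. Its log2 ratio of −0.09 (−0.11 to −0.06) stood at the middle of the analysed genes, 51.1% of which had a lower ratio. Under TMM scaling, which assumes that most genes do not differ, the Cox5b ratio took the opposite sign, at 0.0053.

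Both assembly factors were lower in GnRH cells than the other 8 genes were. Bcs1l, an ATPase that inserts the Rieske iron-sulphur protein into complex III (chr1:74588289-74592443, plus strand), had 886 UMIs in vehicle and 603 in GnRH cells. These were 787 (736 to 840) and 539 (497 to 584) CPM, 1.46-fold lower with GnRH (log2 −0.55, −0.70 to −0.39). Tmem177, a membrane protein that takes part in assembly of complex IV around its subunit Cox2 (chr1:119907890-119913208, minus strand), had 285 and 180 UMIs. These were 253 (225 to 284) and 161 (138 to 186) CPM, 1.57-fold lower with GnRH (log2 −0.65, −0.93 to −0.38). Of the 409 genes, 1.22% had a lower ratio than Tmem177 and 2.20% a lower ratio than Bcs1l. Among 114 genes of like abundance, from 465 to 1489 UMIs over both libraries, the median log2 ratio was −0.11 and 4 (3.51%, Tmem177 and Bcs1l among them) were at or below the ratio of Bcs1l.

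The low values of both assembly factors were seen at every depth of cell. In a division chosen after the ratios had been seen, cells of both libraries were split by UMI total into 3 classes of about equal size, with shared bounds. The Bcs1l log2 ratio was −0.37 (−0.73 to −0.02) in the shallowest class of 81 to 478 UMIs, −0.50 (−0.76 to −0.23) in the middle class, and −0.66 (−0.88 to −0.44) in the deepest class of 637 to 1803 UMIs. For Tmem177 the values were −0.41 (−1.06 to 0.21), −0.72 (−1.23 to −0.23) and −0.71 (−1.11 to −0.31), and the first interval included 0 on only 57 and 36 UMIs. Both loci are free of overlapping genes in the GENCODE annotation. Zfp142, which starts 43 bases from Bcs1l on the other strand, had 462 and 477 UMIs (log2 0.06, −0.13 to 0.24), and Rnf25, its neighbour on the other side, had a log2 ratio of 0.09 (−0.09 to 0.27). The nearest genes with at least 100 UMIs on either side of Tmem177 were Ptpn4 and Tmem37, with starts 75595 and 160866 bases away. Their log2 ratios were −0.10 and −0.13.

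Of the mitochondrial ribosome proteins, Mrpl44 had the lowest ratio. This large-subunit protein (chr1:79776018-79781445, plus strand) had 1198 and 974 UMIs, or 1064 (1004 to 1126) and 871 (817 to 927) CPM, a log2 ratio of −0.29 (−0.41 to −0.17), with 10.8% of genes lower. By depth of cell it was −0.09 (−0.35 to 0.17) in the shallowest class, −0.38 (−0.60 to −0.16) in the middle class and −0.31 (−0.50 to −0.13) in the deepest, so the value was smaller in shallow cells, where it rested on 272 and 215 UMIs. Wdfy1, which overlaps Mrpl44 on the opposite strand with starts 125 bases apart, had 843 and 711 UMIs and a log2 ratio of −0.24 (−0.38 to −0.09). This overlap covers only the starts of both genes, whereas UMIs came from 3′ ends. Only reads within the overlap could be shared, if counting ignored strand, which is not known. Mrpl30, also of the large subunit (chr1:37890477-37898535, plus strand), had 8519 and 7661 UMIs, or 7564 and 6848 CPM (log2 −0.14, −0.19 to −0.10). Its head-to-head partner Mitd1, with a start 66 bases away, had 916 and 820 UMIs and a log2 ratio of −0.15 (−0.29 to −0.01).

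Mrpl15, a further large-subunit protein (chr1:4773206-4785739, minus strand), had 2844 and 2628 UMIs, or 2525 and 2349 CPM (log2 −0.10, −0.18 to −0.03). The value for Mrpl15 moved with depth, at 0.17 (0.0017 to 0.34) in the shallowest class of cells, 0.01 (−0.12 to 0.15) in the middle class and −0.31 (−0.43 to −0.20) in the deepest class. Within the GnRH library the level of Mrpl15 in the deepest over the shallowest of 3 classes of its own cells was −0.41 (−0.55 to −0.27) on the log2 scale, whereas in the vehicle library it was 0.15 (0.00 to 0.30). Its locus overlaps Gm37144 on the same strand, and the share of reads from that gene was not tested. Mrps9, of the small subunit (chr1:42851233-42905683, plus strand), had 1305 and 1297 UMIs, or 1159 (1097 to 1223) and 1159 (1097 to 1224) CPM. Its log2 ratio of 0.00084 (−0.11 to 0.11) was near 0. The 4 ribosome proteins summed gave −0.13 (−0.17 to −0.10).

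**Figure D2:**
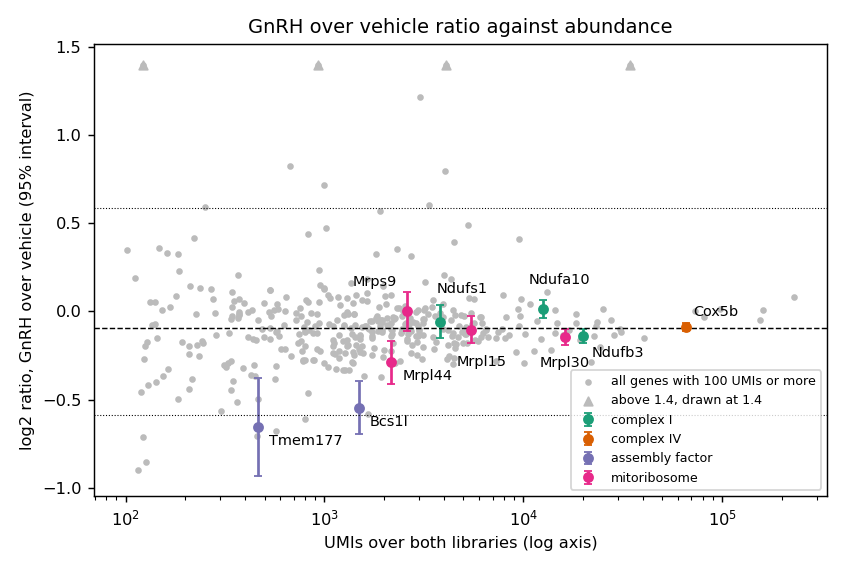
The log2 ratio of GnRH over vehicle against UMIs over both libraries on a log axis, for the 10 genes (coloured, with 95% conditional binomial intervals) and all genes with at least 100 UMIs (grey, with 4 genes above 1.4 drawn at 1.4 as triangles). Dashed and dotted lines mark the all-gene median of −0.09 and 1.5-fold, and Tmem177, at −0.65, is the only 1 of the 10 below the lower dotted line with these library totals, and under TMM scaling none is, with Bcs1l at −0.55 just above it.

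Set against all genes, the list as a whole lay near the centre. None of the 10 genes differed by 2-fold or more, against 1.22% of the 409 genes. Tmem177 alone was at least 1.5-fold lower, against 1.71% of genes, and it was under 1.5-fold lower with TMM scaling (log2 −0.56), with median-of-ratios scaling (−0.57) and without the 5% deepest cells (−0.58). At least 1.5-fold higher were 0 of the 10, against 2.44%. The median log2 ratio of the list was −0.12, and 6 of the 10 were below the all-gene median of −0.09. Without the assembly factors the median was −0.10, with 4 of 8 below. With these library totals the intervals of Ndufs1, Ndufa10 and Mrps9 included 0, and the share of all genes whose interval did so was not counted. Under TMM scaling the Ndufs1 ratio took the opposite sign, at 0.03, and that of Ndufa10 became 0.10, outside its interval. The same scaling brought Ndufb3 to −0.05, Mrpl30 to −0.05 and Mrpl15 to −0.01. The largest shift that another scaling gave the all-gene median was 0.09, so values of this size have no direction apart from the scaling.

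Other nuclear genes for mitochondrial proteins lay in the same range. Of 25 listed, 21 were analysed and 19 had at least 100 UMIs, with a median log2 ratio of −0.12 and 18 within 1.5-fold. The exception was Coq10b, a coenzyme Q binding protein, with 709 and 3355 UMIs and a log2 ratio of 2.25. The lowest was Lipt1, a lipoyltransferase, with 120 and 88 UMIs (log2 −0.44, −0.85 to −0.03). Coa5, a complex IV assembly factor, had 1243 and 1010 UMIs (log2 −0.29, −0.41 to −0.17). Outside this list, Sdhaf4, an assembly factor of complex II, had 4970 and 4215 UMIs, 0.854-fold in GnRH cells with a log2 interval of −0.29 to −0.17. Within the list, the matrix chaperones Hspd1 and Hspe1 had log2 ratios of 0.04 and −0.06, and the import subunit Timm17a −0.12. Coq10b apart, every value of this paragraph was less extreme than that of Bcs1l.

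In single cells the genes ranged from nearly always to seldom detected. Cox5b was found in 99.8% of vehicle and 99.9% of GnRH cells, with a median of 16 UMIs per cell in both libraries. Ndufb3 was found in 96.9% and 97.7% of cells, Mrpl30 in 95.9% and 95.7%, and Ndufa10 in 91.6% and 93.4%. Mrpl15 was found in 70.4% and 72.0%, Ndufs1 in 58.9% and 59.7%, and Mrps9 in 44.9% and 48.0%. Of these 7 genes, only Mrpl30 had a lower share in GnRH cells, which were also the deeper cells. At an equal depth of 300 UMIs per cell the shares were 93.0% and 91.6% for Ndufb3 and 89.6% and 86.7% for Mrpl30. Those of Ndufa10 were 80.8% and 80.4%, of Mrpl15 52.3% and 50.9%, and of Ndufs1 40.9% and 38.8%. Shares of Mrps9 were 29.3% and 29.8%, and of Cox5b 99.90% and 99.96%.

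Cells with Mrpl44 made up 43.4% (exact binomial interval 41.2 to 45.6) of vehicle and 39.7% (37.5 to 42.0) of GnRH cells. Cells with Bcs1l made up 34.5% (32.4 to 36.6) and 26.4% (24.4 to 28.5), and cells with Tmem177 13.2% (11.7 to 14.8) and 9.11% (7.85 to 10.5). Intervals of both assembly factors did not overlap between the libraries, but how many of all genes did the same was not counted. At the depth of 300 UMIs, which left out 219 vehicle and 108 GnRH cells that were shallower, the shares were 21% (19.1 to 23.0) and 14.9% (13.3 to 16.6) for Bcs1l and 7.0% (5.85 to 8.28) and 4.63% (3.68 to 5.68) for Tmem177. Thinned shares of Mrpl44 were 27.4% and 23.9%. Cells were not sorted into types and free RNA was not measured, so the shares include any UMIs from free RNA.

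**Figure D3:**
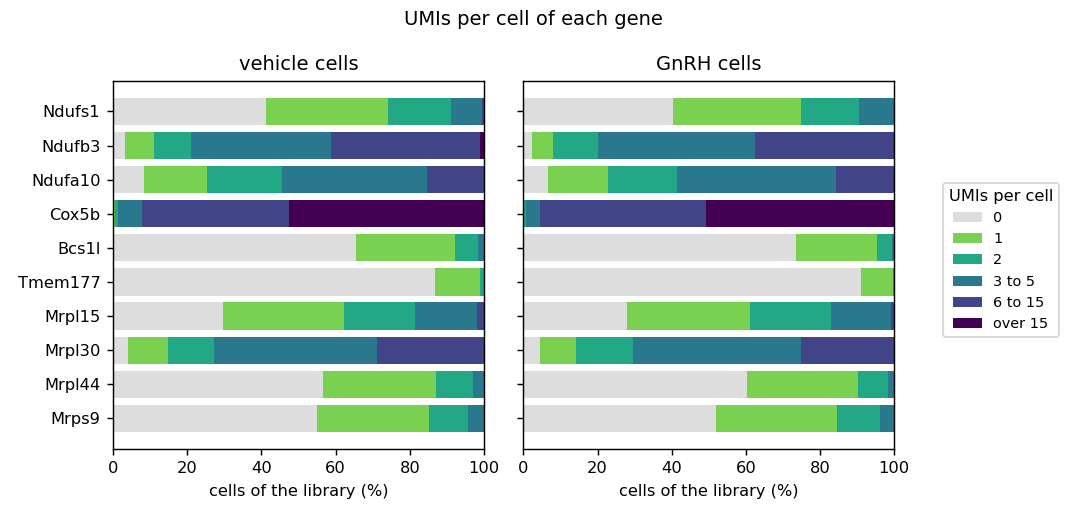
Share of cells (in percent of the library) by number of UMIs of each gene, for vehicle cells on the left and GnRH cells on the right. The class with 0 UMIs of Bcs1l grows from 65.5% of vehicle to 73.6% of GnRH cells, while almost every cell holds Cox5b.

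The zeros were close in number to those of plain counting. Given the UMI totals of the cells, Poisson counting at a constant level gave 65.1% of vehicle and 73.2% of GnRH cells without Bcs1l, against 65.5% and 73.6% measured. A vehicle cell held a median of 32 UMIs of the 10 genes together (quartiles 24 and 42) and a GnRH cell 31 (24 and 40). These were 5.97% and 5.59% of the UMIs of the cell. A median of 7 of the 10 genes was detected in vehicle cells and 6 in GnRH cells, and 22 vehicle and 8 GnRH cells held all 10. In deep and shallow cells of a library the summed level was almost the same. The log2 difference between the deepest and shallowest class was −0.05 (−0.08 to −0.02) in vehicle and −0.06 (−0.09 to −0.03) in GnRH cells. Cox5b made up 33934 of the 67660 UMIs summed in vehicle cells, and some single genes moved more, in both directions. In vehicle cells the difference was −0.15 (−0.24 to −0.07) for Mrpl30 and 0.15 (0.00 to 0.30) for Mrpl15. In GnRH cells it was −0.41 (−0.55 to −0.27) for Mrpl15 and −0.32 (−0.55 to −0.09) for Mrpl44.

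To see how far single cells differed, the squared coefficient of variation (CV) of each gene was divided by the value that Poisson counting gives at the UMI totals of the cells, where 1 is counting noise alone. Cox5b had the highest ratio of the 10 genes, at 1.27 in vehicle and 1.21 in GnRH cells, with a CV of 0.536 against 0.476 expected in the former and 0.490 against 0.447 in the latter. Thinned to 300 UMIs per cell, Cox5b had 1.36 and 1.3 and stayed the highest. Mrpl15 had 1.20 in vehicle and 1.03 in GnRH cells, but 1.04 in both after thinning, and Ndufb3 had 1.12 and 1.03. Bcs1l had 1.05 and 1.04, and Mrpl30 had 0.948 and 0.972, which became 1.03 in both after thinning. A ratio of at least 1.5 was reached by 0 of the 10 genes in vehicle cells, against 5.81% of the 344 genes that averaged 0.1 UMI per cell or more. In GnRH cells it was reached by 0 of 9, against 6.73% of 342 genes, where Tmem177 had too low a mean to count. Medians over the list were 1.06 and 1.03, and those over all such genes 1.07 and 1.07.

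**Figure D4:**
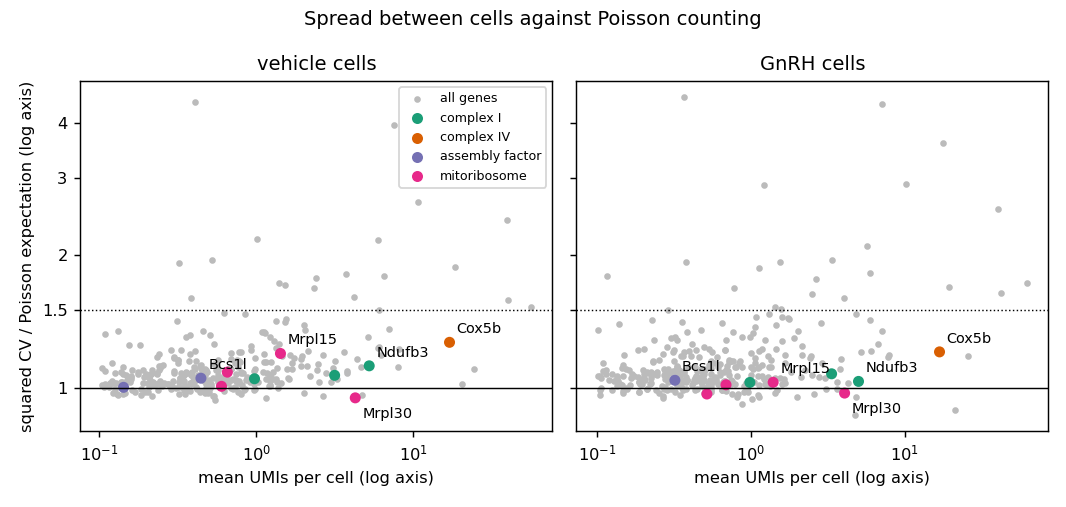
Squared CV over its Poisson expectation (log axis) against mean UMIs per cell (log axis), in vehicle and GnRH cells, for the 10 genes in colour and all genes that averaged 0.1 UMI per cell or more in grey. Coloured points lie along the line at 1, with Cox5b highest at 1.27 and 1.21, and none reaches the dotted line at 1.5.

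Measured correlation between the genes was weak once depth was made equal. Over cells thinned to 300 UMIs, 1773 of vehicle and 1781 of GnRH, the median Pearson correlation over the 45 pairs was 0.0082 and 0.0078, against −0.00017 and −0.00023 over all 57291 pairs of 339 genes. Correlation was above 0 for 31 of the 45 pairs (68.9%) in vehicle cells and 30 (66.7%) in GnRH cells, against 49.6% and 49.4% of all pairs. The highest value was that of Cox5b with Ndufb3 in vehicle cells, 0.15, and it was 0.06 in GnRH cells. Cox5b with Mrpl15 gave 0.05 and 0.07. All values above 0.1 came to 1 pair in vehicle and 0 in GnRH cells. Bcs1l, with the second lowest ratio, was at −0.04 with Ndufa10 in vehicle cells, the lowest of the 45 pairs. These values are descriptions over cells that share a library. Cells at a fixed UMI total have slightly negative correlation by construction, more so between abundant genes. Counting noise also brings correlation towards 0 for genes with few UMIs. At this depth 7.0% of vehicle cells held Tmem177 and 21% held Bcs1l. Low values therefore do not show that the genes vary apart.

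**Figure D5:**
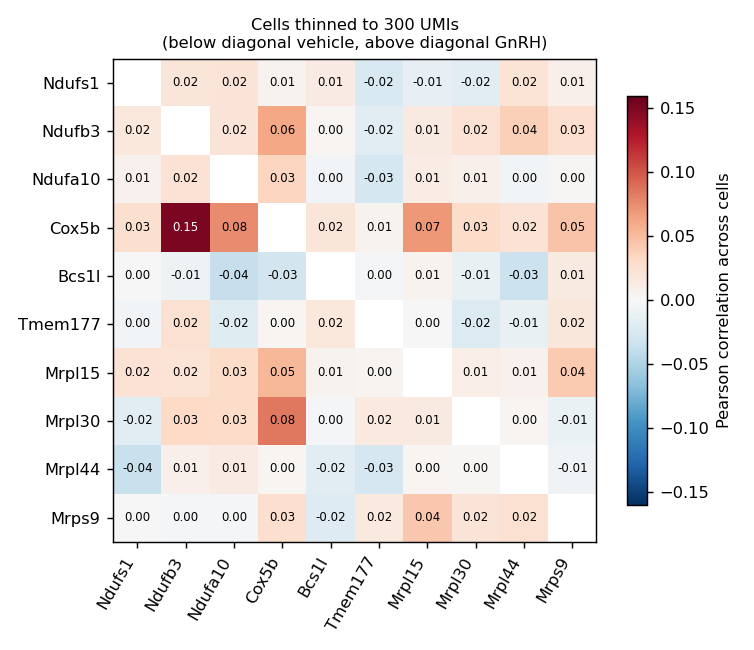
Pearson correlation across cells for each pair of the 10 genes at 300 UMIs per cell (colour scale and printed value), with vehicle cells below the diagonal and GnRH cells above it. Most squares are near 0, and the darkest is Cox5b with Ndufb3 in vehicle cells at 0.15.

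Summed over the 10 genes at equal depth, the variance of the sum was 1.21 times the sum of the single variances in vehicle cells and 1.13 times in GnRH cells. The variance over the mean of the sum was 1.47 and 1.32, against 0.940 and 0.944 for drawing at a fixed total. Before thinning, Cox5b made up 33934 of the 67660 UMIs summed in vehicle cells, so values of the sum weigh Cox5b most. Genes outside the list whose level was most like this sum were Dbi, which binds acyl-CoA, with correlations of 0.11 in vehicle and 0.09 in GnRH cells over 330 genes compared, followed by the elongin subunit Tceb1 (0.10 and 0.06), the actin-nucleating subunit Arpc2 (0.07 and 0.08), the signalosome subunit Cops5 (0.08 and 0.06) and Timm17a (0.07 and 0.07). The median over these 330 genes was −0.02 and −0.01. Values further from 0 were negative. The lowest were those of the ribosomal protein gene Rpl37a (−0.25 and −0.21) and Cntnap5a (−0.24 and −0.18), named after their values were seen. At a fixed UMI total, abundant genes fall below 0 by construction. Before thinning, Rpl37a averaged 56.3 UMIs per vehicle cell and Cntnap5a 10.7, and the part of their values due to this was not tested. Btg2, which had 1049 UMIs in vehicle and 33510 in GnRH cells, was at −0.08 and −0.05.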

How the data were processed

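The authors made the deposited counts, raw UMIs per gene and called cell with no normalisation, using Cell Ranger version 1.3 per the submitters' processing notes. Annotation and use of strand in counting were not given in the sources used here. The table held the first 1068 genes, 1 incomplete row was left out, and 0 per-sample columns were unused. The members and gene lists were chosen with earlier results of these data known. All 10 members, 25 other mitochondrial genes and the 5 genes most like the summed members were named by rule. So were the nearest genes with at least 100 UMIs on either side. UMIs were summed per library and scaled to the total of the analysed genes. Intervals are 95%: exact Poisson, exact binomial for shares of cells and exact conditional binomial for ratios, and cover counting error only. Cells were thinned to 300 UMIs, and values are means of 20 thinnings. No doublet caller was run. As an alternative the deepest 5% of cells were left out. Positions came from GENCODE M21 (GRCm38). Python 3.11.15, numpy 2.4.6, scipy 1.17.1, pandas 2.3.3, and edgeR 4.0.16 (TMM factors only) in R 4.3.3 were used, and scripts were tested on simulated data.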

Additional observations from a re-analysis of the deposited data

How the results depend on the processing

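Depth limits the lesser genes most: Tmem177 rested on 285 and 180 UMIs, and the table holds 3.81% of listed genes, so totals are partial. Each treatment had 1 library, so no alternative can stand for replicate error. No paired analysis was possible because there was a single library for either treatment, and no test was run.

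Over the 10 genes the log2 ratio had a median of −0.12, which became −0.029 with TMM scaling, −0.040 with median-of-ratios scaling and −0.054 with unscaled means per cell, while the all-gene median moved by up to 0.09. With TMM or median-of-ratios scaling, or without the 5% deepest cells, 0 of the 10 genes were at least 1.5-fold lower, in place of 1. Of 80 recomputed ratios of single genes, 64 stayed within their counting interval and 16 did not. Bcs1l ranged from −0.56 to −0.45 and Tmem177 from −0.66 to −0.56, and they were the lowest of the 10 in all 8 alternatives. With minimums of 20 and 1 UMIs, the share of all genes differing 2-fold was 2.14% and 3.77%, that 1.5-fold lower 3.64% and 5.42%, and that 1.5-fold higher 3.85% and 4.67%. Against plain Poisson counting the median squared CV ratio was 1.35 in vehicle and 1.23 in GnRH cells. Raw counts gave median correlations of 0.19 and 0.13. The median share of cells with a UMI was 64.7% and 65.9%, and 46.6% and 44.9% after thinning. NRF1 letters with any middle base were in 4 windows in place of 0.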
